A study of Mus musculus with 12 samples.

Results

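The nuclear-encoded subunits of the mitochondrial respiratory chain and of ATP synthase were compared between spontaneous lung tumours and normal lungs of the mouse. Members were the genes whose symbol in the platform annotation begins with Nduf, Uqcr or Atp5, is Sdha, Sdhb, Sdhc or Sdhd, or begins with Cox followed by a digit from 4 to 8. Only probe sets with a single symbol were used, and a gene took the value of its probe set with the highest mean over the 12 arrays. This gave 90 of the 18193 genes measured, namely 34 subunits of complex I, 8 complex I assembly factors, 4 subunits of complex II, 8 of complex III, 19 of complex IV and 17 of complex V. All 90 matched a mouse RefSeq gene of the same symbol. The tissue came from B6C3F1 mice aged 2 years in a rodent bioassay, and there was 1 array for each of 6 lung tumours that had arisen spontaneously and of 6 normal lungs. No sample of either group was treated, and the labels give neither the sex of the animals nor whether each sample came from a separate animal, so the p-values describe the variation among these samples alone. Frozen tissue was homogenised, so a smaller number of cells of a type and less RNA per cell cannot be told apart in any value below.

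The respiratory chain of the inner mitochondrial membrane passes electrons from NADH and succinate to oxygen through complexes I to IV and pumps protons, and complex V, the ATP synthase, uses the proton gradient to make ATP. Most subunits are encoded in the nucleus and are made in every tissue, whereas several small subunits of complex IV exist as paralogues whose tissue forms are best known from heart and skeletal muscle, from lung or from testis. The lung's type II alveolar cells, from which many mouse lung tumours are thought to arise, make and secrete surfactant and are rich in mitochondria.

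Of the 74 subunits other than tissue isoforms and assembly factors 32 rose in the tumours and none fell. Of the 8 tissue isoforms of complex IV, with which the paralogue Ndufa4l2 was counted, 5 fell and none rose. With the deposited scaling, 32 of the 90 members rose, 6 fell and 52 did not pass the test (limma, Benjamini-Hochberg adjusted p under 0.05 over all probe sets). In the whole array 12.1% of genes were higher and 17.4% lower, and among the brightest 25% of genes by mean signal, where 74 of the members lie, 23.4% were higher and 20.6% lower. The median difference (log2(signal + 16) of tumours minus that of normal lungs, the scale of every difference below) was 0.29 over the members, -0.08 over all genes and 0.06 over the brightest 25%. Every rise was small: the 32 differences ran from 0.36 to 0.94, and 17 were under 0.5. In 25 members all 6 tumours lay above all 6 normal lungs and in 4 members all lay below, beside 6.74% and 11.7% of all genes.

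**Figure D1:**
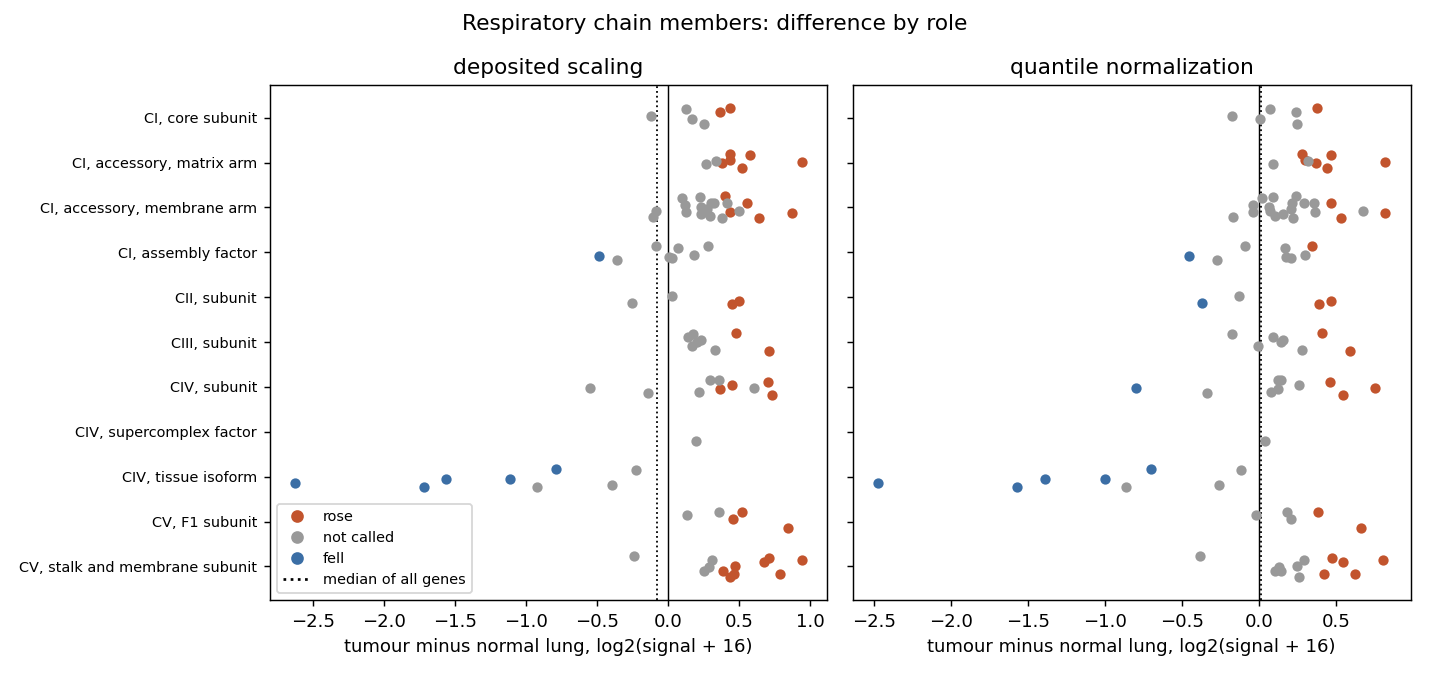
Difference of each of the 90 members (points) between tumours and normal lungs in log2(signal + 16), by role, with the deposited scaling on the left and after quantile normalization on the right; colour marks members past an adjusted p of 0.05 and the dotted line is the median of all genes. Members of complexes I and V lie mostly to the right of 0 and the complex IV tissue isoforms reach -2.62.

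Because these differences are small, they were also computed after other scalings. Quantile normalization, which gives all arrays the same distribution, left 25 members higher and 8 lower with a median of 0.18, where 13.8% of all genes were higher and 15.9% lower (21.3% and 23.0% of the brightest 25%). Of the 32 rises, 23 were called there and 9 were not, namely Ndufa10, Ndufb11, Ndufv2, Cox5b, Cox7a2, Atp5b, Atp5h, Atp5j2 and Atp5g3. Ndufaf1 and Cox7c were called higher and Sdhb and Cox6a1 lower after quantile normalization alone of these 2 scalings. Setting the median of each array equal gave 52 higher and 5 lower with a median of 0.48, where 19.1% of all genes were higher and 12.8% lower and the median of all genes moved to 0.11. Median centring added 20 calls, namely Ndufaf1, Ndufa5, Ndufa7, Ndufb1, Ndufb6, Ndufa13, Ndufb10, Ndufc1, Ndufc2, Ndufa8, Ndufb8, Ndufs1, Uqcrq, Uqcr11, Cox7c, Cox4i1, Atp5a1, Atp5md, Atp5j and Atp5l, and lost the fall of Ndufaf3. The sign of the difference changed for 7 uncalled members after quantile normalization (Ndufa1, Ndufa3, Ndufb4, Sdha, Uqcrb, Uqcrh and Atp5d) and for 5 after median centring (Ndufaf8, Ndufb4, Ndufs5, Ndufs7 and Cox6c). No member was called in opposite directions by the deposited and the quantile scaling.

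**Figure D2:**
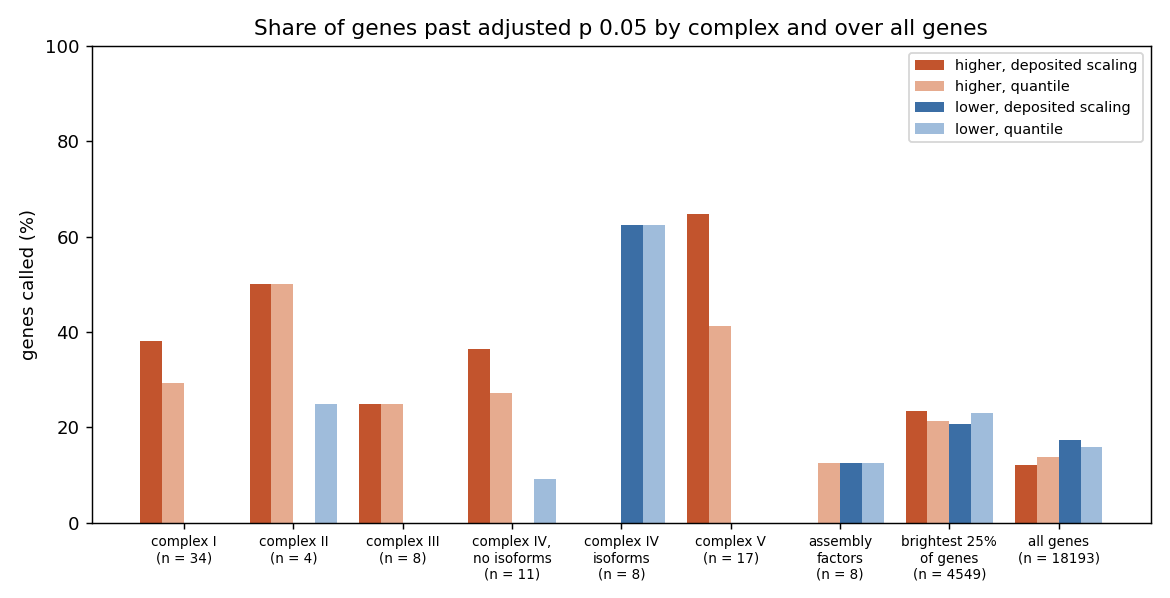
Share of genes past an adjusted p of 0.05 (vertical axis, percent) in each complex, in the 8 assembly factors, among the brightest 25% of genes (4549) and among all 18193 genes, higher or lower in tumours, for both scalings. The share of complex V called higher was 64.7% with the deposited scaling and 41.2% after quantile normalization.

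The arrays and tissues differed in other ways. The median signal of an array was 151.4 to 164.4 in normal lungs and 126.1 to 149.8 in tumours. Markers of ciliated (6 of 6), endothelial (6 of 6), club (4 of 4), type I (4 of 5) and cardiac muscle cells (8 of 9) fell in tumours. Markers of macrophages (4 of 5), proliferation (3 of 3) and type II cells (3 of 5, or 1 of 5 after quantile normalization) rose. The Y-linked gene Eif2s3y had a signal of 740.5 to 1638 in tumours 1, 2, 3 and 5 and at most 27.44 in every other array, while Xist reached at least 7877 in these other arrays, which are the 6 normal lungs with tumours 4 and 6. No normal lung had the Y-linked signal, so this signal is partly confounded with the tumour group. With Eif2s3y as a covariate 13 members were higher, beside 32 without it. Tumours 4 and 6, which resembled the normal lungs in both genes, gave 18 against all normal lungs, with fewer arrays. All 32 members that rose had a positive difference in these fits. The share of all genes called in these fits is not given here, so these counts cannot be set against it. The part of the cell mixture in the differences below was not tested.

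Complex I, the NADH dehydrogenase, had 13 of 34 subunits higher and none lower, with a median difference of 0.33 (quantile scaling 10 higher, none lower, 0.24). The rises were most frequent among the accessory subunits of the matrix arm, the part that reaches into the matrix and takes electrons from NADH, where 6 of 8 rose with a median of 0.43. Ndufa2, a small accessory subunit of this arm, had a signal of 3110, 3311 and 3446 (lowest, median and highest) in normal lungs and of 5133, 6357 and 7873 in tumours. All 6 tumours lay above all normal lungs. The difference was 0.94 ± 0.11 (SE, n = 6 per group; adjusted p = 2.31e-05), a 1.92-fold higher level on this scale. Ndufa6, another accessory subunit, rose from a median of 3061 to 4405 (0.58 ± 0.12, adjusted p = 0.00247), again without overlap. Ndufa12 rose by 0.43 (adjusted p = 0.00326), and Ndufv3, Ndufa9 and Ndufs4 rose by 0.43, 0.52 and 0.38. Ndufa5 and Ndufa7 differed by 0.34 and 0.27 without passing the test.

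Of the 20 accessory subunits of the membrane arm, which contains the proton pumps, 5 rose and none fell, with a median of 0.30. This share of 25% was close to the 23.4% of the brightest genes. Ndufb2 had a signal of 1674, 1820 and 2001 in normal lungs and of 2295, 3120 and 5073 in tumours, so that the groups did not overlap although the tumours spread widely. Its difference was 0.87 ± 0.17 (adjusted p = 0.00145). Ndufb5 rose from 2837, 3008 and 3531 to 4185, 4835 and 5545 (0.64 ± 0.10, adjusted p = 2.73e-04). Ndufab1, the mitochondrial acyl carrier protein, which is also bound in complex I, rose by 0.55 (adjusted p = 0.00455). Ndufa10 and Ndufb11 rose by 0.44 and 0.40 with the deposited scaling. A further probe set of Ndufb11, at 5949 in normal lungs and 7705 in tumours on average, rose by 0.37 (adjusted p = 0.0294). Another, at 5921 and 5248, gave -0.16 (adjusted p = 0.435), and the rise of Ndufb11 was not called with the mean of its probe sets. The other 15 lay between -0.11 for Ndufs5 and 0.50 for Ndufb1, whose probe set was dim at a median of 165.2 in normal lungs.

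Several of the core subunits measured, though not Ndufs3, carry the flavin or iron-sulfur clusters, and 2 of the 6 measured rose. Ndufs3, a core subunit of the matrix arm, had a signal of 2100, 2449 and 2628 in normal lungs and of 2802, 3151 and 4391 in tumours, without overlap (0.44 ± 0.12, adjusted p = 0.0135). Ndufv2, an iron-sulfur subunit of the NADH-oxidising end, rose by 0.37 (adjusted p = 0.028), with 5 of 6 tumours above all normal lungs. Ndufs1, Ndufs8, Ndufv1 and Ndufs7 differed by 0.26, 0.17, 0.13 and -0.12 and were not called (adjusted p = 0.248, 0.461, 0.496 and 0.528). Ndufs8 depended on the probe set: a further probe set of the gene was higher by 1.07 (adjusted p = 2.52e-05). Its remaining probe sets differed by 0.14 to 0.33 and were not called. Of the 8 assembly factors, which help to build complex I and are not part of it, none rose and Ndufaf3 fell, with a median of 0.02. Ndufaf3 had a signal of 1054, 1198 and 1348 in normal lungs and of 731.7, 868.6 and 957.5 in tumours, with no overlap (-0.49 ± 0.11, adjusted p = 0.00347).

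Complex II, succinate dehydrogenase, is part of both the citric acid cycle and the respiratory chain, and 2 of its 4 subunits rose. Differences between its subunits were not tested. Both membrane anchors rose. Sdhd had a signal of 1572, 1716 and 1958 in normal lungs and of 1966, 2335 and 3334 in tumours (0.50 ± 0.14, adjusted p = 0.0148), and Sdhc rose by 0.45 ± 0.14 (adjusted p = 0.0302). The highest normal lung for Sdhd lay just under the lowest tumour. The catalytic subunits were not called. Sdha, the flavoprotein, differed by 0.03 ± 0.12 (adjusted p = 0.898) and by -0.13 after quantile normalization. Sdhb, the iron-sulfur subunit, had a signal of 3690, 4526 and 5064 in normal lungs and of 2788, 3640 and 4794 in tumours, and the groups overlapped (-0.25 ± 0.14, adjusted p = 0.224; after quantile normalization -0.37, adjusted p = 0.0431).

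Complex III, the cytochrome bc1 complex, had 2 of 8 subunits higher and none lower, with a median of 0.22 (quantile scaling 0.15). This share of 25% was close to the 23.4% of the brightest 25% of genes. Uqcrc2, a core protein facing the matrix, had a signal of 2939, 3225 and 3560 in normal lungs and of 4339, 5337 and 5888 in tumours. There was no overlap, and the difference was 0.71 ± 0.11 (adjusted p = 1.75e-04). Uqcrfs1, the Rieske iron-sulfur protein, rose by 0.48 ± 0.13 (adjusted p = 0.016), with 4 of 6 tumours above all normal lungs. Uqcrc1, the other core protein, differed by 0.20 ± 0.13 (adjusted p = 0.3). The remaining 5 lay between 0.14 for Uqcr10 and 0.33 for Uqcrq, none of them called. Uqcrb had a signal of 18060 to 27420 on its brightest probe set and differed by 0.18 there and by 0.62 on a further probe set (adjusted p = 0.00233).

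Complex IV, cytochrome c oxidase, split into its general subunits and its tissue isoforms. Over all 19 members 4 rose and 5 fell, with a median of -0.14 (quantile scaling 3 higher and 6 lower, -0.12). Of 10 general subunits 4 rose and none fell, with a median of 0.36 (quantile scaling 3 higher and 1 lower, 0.13). Cox5a, which binds the matrix side of the complex, had a signal of 4835, 5572 and 6586 in normal lungs and of 7043, 9788 and 12070 in tumours, with no overlap (0.73 ± 0.15, adjusted p = 0.00204). Cox6b1, which lies on the intermembrane side, rose from 9237, 9942 and 11700 to 14800, 16120 and 18940 (0.70 ± 0.11, adjusted p = 2.76e-04). Cox5b and Cox7a2 rose by 0.45 and 0.36 with all 6 tumours above all normal lungs, but neither was called after quantile normalization. Cox4i1, Cox8a and Ndufa4, a protein first assigned to complex I and now placed in complex IV, differed by 0.36, 0.30 and 0.22 and were not called. Cox6a1 had the lowest difference among the general subunits: its signal was 13650, 17920 and 20250 in normal lungs and 8522, 9856 and 21430 in tumours. In 4 tumours it lay below all normal lungs and in 1 above, so the groups overlapped (-0.55 ± 0.22, adjusted p = 0.0945; after quantile normalization -0.80, adjusted p = 0.00566). A further probe set of Cox6a1 gave -0.02 (adjusted p = 0.939). Cox7a2l, a factor that joins complexes III and IV into supercomplexes, differed by 0.20.

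Of the 8 tissue isoforms of complex IV, 5 fell and none rose under the deposited, the quantile and the median scaling, with a median of -1.02, -0.93 and -0.83. Cox8b, the muscle form of subunit VIII, had a signal of 495, 997.5, 388, 322.3, 363 and 393.3 in normal lungs 1 to 6 and of 45.8, 68.65, 58.52, 82.03, 70.52 and 44.37 in tumours 1 to 6. Every tumour lay under every normal lung by a wide margin. The difference was -2.62 ± 0.26 (adjusted p = 3.52e-06), the largest in size of any member. Cox7a1, the heart and muscle form of subunit VIIa, fell from 335.3, 404.6 and 545.8 to 43.19, 124.2 and 212.4 (-1.71 ± 0.27, adjusted p = 2.54e-04). Cox4i2, the form of subunit IV best known from lung, fell from 204.5, 272.2 and 446.5 to 50.47, 92.95 and 158.5 (-1.56 ± 0.27, adjusted p = 5.00e-04). Neither gene's groups overlapped. The median tumour signals of Cox8b, Cox7a1 and Cox4i2 lay under the lowest array median of 126.1, and detection calls were not used here, so the sizes of these falls depend on the offset: that of Cox8b was -2.90 with an offset of 1 and -2.06 with 64. Cox6b2, a form known from testis, had a signal of 491.5, 632.1 and 711.2 in normal lungs and of 149.3, 294.8 and 593.4 in tumours, with 1 tumour inside the normal range (-1.11 ± 0.28, adjusted p = 0.00782). Ndufa4l2, a paralogue of Ndufa4 known to be induced by low oxygen, was counted with the tissue isoforms. It fell from 577, 732.9 and 882.5 to 285.4, 382.7 and 618.6, again with 1 tumour overlapping (-0.79 ± 0.18, adjusted p = 0.0045). Cox8c and Cox7b2, forms known from testis, differed by -0.23 and -0.40 and were not called, and Cox7b2 was at a median of 11.13 in normal lungs, close to the bottom of the scale. The falls of Cox6b2 and Ndufa4l2 were not called with Eif2s3y as a covariate.

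Cox6a2, the heart and muscle form of subunit VIa, was spread more widely. Its signal lay between 1181 and 1826 in normal lungs and was 2105, 135.3, 2405, 1077, 868.4 and 213.6 in tumours 1 to 6. Tumours 1 and 3 were above all normal lungs, and the other four were below all of them. The difference of -0.92 ± 0.57 was not called (adjusted p = 0.276).

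**Figure D3:**
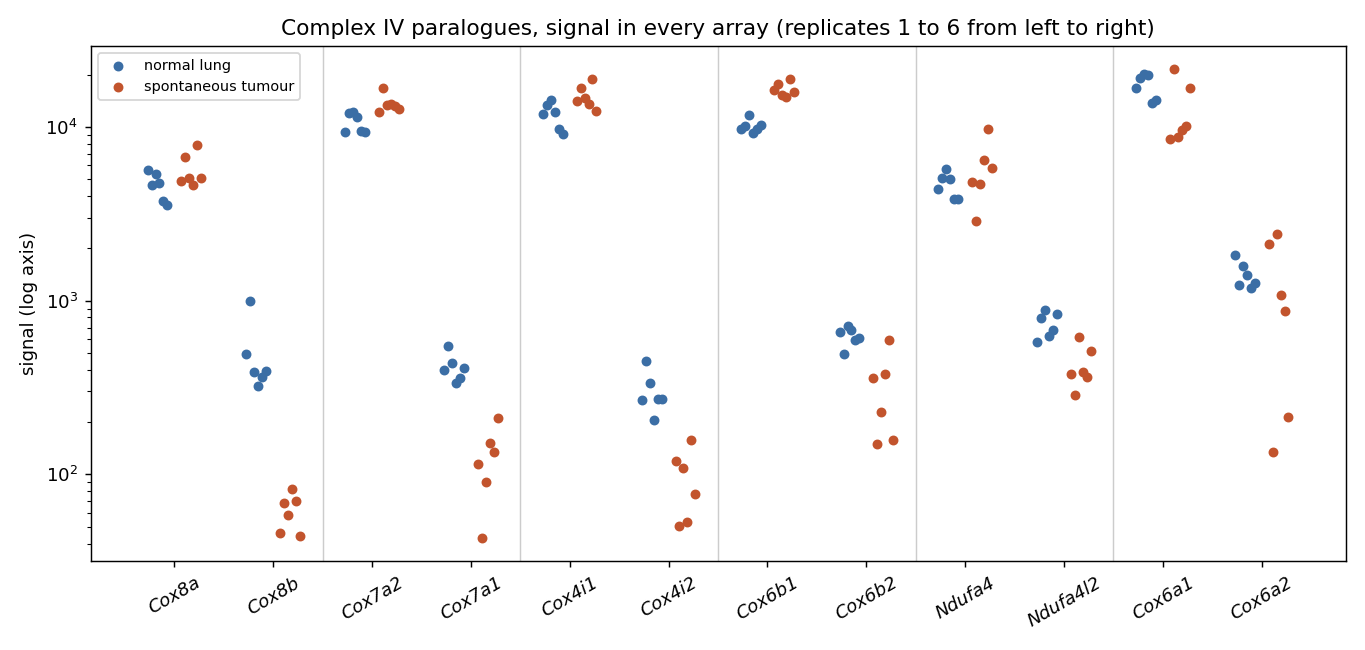
Signal (log axis) of complex IV paralogue pairs in every array, normal lungs in blue and tumours in orange, replicates 1 to 6 from left to right within a group; levels of different genes are not comparable because they come from different probe sets. In Cox8b, Cox7a1 and Cox4i2 all tumours lie under all normal lungs, and in Cox6a2 the tumours run from 135.3 to 2405.

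In 8 pairs the paralogues were set against each other by testing, within each array, the difference between both genes. Apart from the pairs of Atp5g1 and Atp5g3 with Atp5g2, given under complex V, these set an isoform against its general partner. Relative to the partner, Cox8b was lower by -2.92 ± 0.24 against Cox8a (adjusted p = 8.08e-07), Cox7a1 by -2.08 ± 0.29 against Cox7a2 (8.47e-05) and Cox4i2 by -1.92 ± 0.22 against Cox4i1 (1.67e-05). Cox6b2 was lower by -1.82 ± 0.26 against Cox6b1 (1.16e-04), where the partner itself rose. Ndufa4l2 was lower by -1.003 ± 0.24 against Ndufa4 (0.0068). The difference between Cox6a2 and Cox6a1 was -0.38 ± 0.75 and did not pass the test (0.771). The 5 pairs that passed did so after quantile normalization as well, with differences from -0.79 to -2.62.

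Many marker lists were lower in the tumours, as these isoforms were. The endothelial, ciliated, club and type I lists differed by -3.145, -2.68, -2.52 and -1.32 in mean level, each with all 6 tumours below all normal lungs. The mean level of 9 cardiac muscle markers was 10.03 to 10.94 in normal lungs and 5.996 to 8.08 in tumours on the log2(signal + 16) scale. The cardiac troponin Tnni3 had a signal of 1203 to 2225 in normal lungs and of 31.41 to 175.1 in tumours, while of 6 skeletal muscle markers Ckm alone fell and Myh1, Myh2 and Tnnt3 averaged at most 35.5 in either group. Of 5 adipocyte markers 3 fell, with a list level of 6.55 to 8.84 in normal lungs and 5.31 to 6.36 in tumours. Normal lung 2, with the highest Cox8b, Cox7a1 and Cox4i2 values, was also the array with a signal of 635.5 for Ucp1, the uncoupling protein of brown fat, which was at most 34.3 elsewhere. The smooth muscle and pericyte list fell in 7 of 9 members and its mean level was 10.14 to 10.67 in normal lungs and 8.76 to 9.495 in tumours, while Rgs5 of that list rose by 3.03. All 6 falls were called without normal lungs 2 and 4, the latter of which had, like normal lung 2, high hepatocyte transcripts (list level 10.88 and 11.08, against 5.21 to 8.11 in the other normal lungs). The part of these cell types in the isoform falls was not tested.

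The promoters of 3 pairs are shown, those whose partners differed in the test above and both have a promoter in the table. Each is 300 bases, from 250 before to 50 after the annotated start, taken from mouse RefSeq (build GRCm38.p6) and printed on the gene's strand. Capitals mark matches on either strand to GCATGCGC (the core of NRF1 sites), CCGGAAG (ETS factors, such as GABP), AAGATGG (YY1), TGACGTCA (the cyclic AMP response element), ACGTG (the hypoxia response core) or AAGGTCA (estrogen-related receptors). The ACGTG letters are not part of any other motif in this search.
Cox8a, chr19:7217567-7217866, minus strand: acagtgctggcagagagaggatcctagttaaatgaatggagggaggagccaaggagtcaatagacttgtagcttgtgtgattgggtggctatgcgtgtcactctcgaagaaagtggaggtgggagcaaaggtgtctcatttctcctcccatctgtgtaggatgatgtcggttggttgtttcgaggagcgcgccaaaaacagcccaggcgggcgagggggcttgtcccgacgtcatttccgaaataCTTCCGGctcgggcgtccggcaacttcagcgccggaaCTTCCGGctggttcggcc
Cox8b, chr7:140900397-140900696, minus strand: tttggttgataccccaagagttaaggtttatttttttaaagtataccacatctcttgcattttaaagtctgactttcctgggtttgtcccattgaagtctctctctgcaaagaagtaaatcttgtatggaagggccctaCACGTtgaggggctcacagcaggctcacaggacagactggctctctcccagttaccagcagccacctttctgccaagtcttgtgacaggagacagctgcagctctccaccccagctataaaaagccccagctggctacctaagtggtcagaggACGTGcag
Cox7a2, chr9:79759804-79760103, minus strand: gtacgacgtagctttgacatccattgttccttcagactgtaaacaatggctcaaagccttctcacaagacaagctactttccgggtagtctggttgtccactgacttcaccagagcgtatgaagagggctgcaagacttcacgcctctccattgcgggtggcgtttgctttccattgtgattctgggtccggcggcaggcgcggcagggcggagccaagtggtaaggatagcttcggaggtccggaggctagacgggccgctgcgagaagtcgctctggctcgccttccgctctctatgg
Cox7a1, chr7:30183921-30184220, plus strand: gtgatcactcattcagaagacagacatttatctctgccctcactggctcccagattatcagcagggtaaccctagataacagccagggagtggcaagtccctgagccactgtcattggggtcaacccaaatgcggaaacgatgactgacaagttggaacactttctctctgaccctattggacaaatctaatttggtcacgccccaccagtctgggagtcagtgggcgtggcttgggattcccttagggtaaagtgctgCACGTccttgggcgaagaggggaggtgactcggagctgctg
Cox6b1, chr7:30626065-30626364, minus strand: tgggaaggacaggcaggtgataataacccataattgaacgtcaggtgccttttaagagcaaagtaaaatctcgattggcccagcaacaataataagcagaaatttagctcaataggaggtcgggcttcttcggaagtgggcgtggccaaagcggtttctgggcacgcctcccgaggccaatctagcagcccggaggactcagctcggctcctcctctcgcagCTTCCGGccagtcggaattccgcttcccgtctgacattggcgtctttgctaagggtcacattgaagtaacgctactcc
Cox6b2, chr7:4753045-4753344, minus strand: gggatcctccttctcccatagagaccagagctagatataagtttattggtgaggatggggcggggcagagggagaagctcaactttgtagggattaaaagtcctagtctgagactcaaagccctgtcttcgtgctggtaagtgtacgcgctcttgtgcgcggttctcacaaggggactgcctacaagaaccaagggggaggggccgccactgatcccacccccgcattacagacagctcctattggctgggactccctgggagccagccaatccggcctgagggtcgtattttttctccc

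As a description of these sequences, there were 2 CpG dinucleotides in Cox8b against 19 in Cox8a, 7 in Cox7a1 against 20 in Cox7a2, and 10 in Cox6b2 against 17 in Cox6b1. The median was 8.5 in the 4 of 8 tissue isoforms with a promoter in the table, of which 3 are printed above, 19.0 in 63 other subunits and 17 in 14369 genes on the array. Cox8a and Cox6b1 held the ETS letters and Cox8b and Cox7a1 the hypoxia letters. Of the 74 members with a promoter, 14.9% held the NRF1 letters against 4.7% of the genes on the array with one, 25.7% against 15% the ETS letters, 14.9% against 7.55% the YY1 letters and 10.8% against 4.61% the estrogen-related receptor letters. The cyclic AMP letters were in 4.05% against 2.94% and the hypoxia letters in 25.7% against 26.2%. Among members the NRF1 letters were in 2 of the 28 that rose and in 9 of the 42 not called, and the ETS letters in 5 and 14. These counts describe letters in a window and were not tested.

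In complex V 11 of 17 subunits rose and none fell, with a median of 0.46. After quantile normalization 7 were higher, none lower and the median was 0.26. In the F1 head, which makes ATP, 3 of 5 subunits rose. Atp5c1, the central shaft, had a signal of 4805, 5225 and 5514 in normal lungs and of 7703, 9579 and 11030 in tumours. The groups were far apart relative to their spread, and the difference was 0.84 ± 0.11 (adjusted p = 6.55e-05). Atp5e rose by 0.52 ± 0.11 (adjusted p = 0.00338). Atp5b, the catalytic subunit, rose from 10020, 10890 and 11690 to 13310, 14530 and 18110, without overlap (0.46 ± 0.11, adjusted p = 0.00635), but was not called after quantile normalization (0.21, adjusted p = 0.149). Atp5a1, its partner in the head, differed by 0.36 ± 0.14 (adjusted p = 0.0754), with 5 of 6 tumours above all normal lungs. Atp5d differed by 0.13.

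In the stalk and membrane part, 8 of 12 subunits rose, and in all 8 the 6 tumours lay above the 6 normal lungs. Atp5o, which joins the peripheral stalk to the head, had a signal of 2964, 3778 and 4335 in normal lungs and of 6120, 7253 and 8646 in tumours. Its difference of 0.94 ± 0.12 (adjusted p = 4.43e-05), or 1.92-fold, was the largest rise among the members. Atp5pb, subunit b of the peripheral stalk, rose from 8763, 9724 and 10130 to 13660, 15060 and 18440 (0.71 ± 0.11, adjusted p = 3.07e-04). Atp5mpl, a small membrane proteolipid, rose by 0.68 ± 0.14 (adjusted p = 0.00202). Atp5g1, Atp5g2 and Atp5g3 encode the same rotating ring protein with different import signals, and they rose by 0.47, 0.79 and 0.39 (adjusted p = 0.0349, 0.0025 and 0.0171). The rise of Atp5g1 was smaller than that of Atp5g2 by 0.32 ± 0.12 (adjusted p = 0.0663) and that of Atp5g3 by 0.40 ± 0.15 (0.0608), neither past the threshold, whereas the latter was -0.48 (0.0295) after quantile normalization. Atp5h and Atp5j2 rose by 0.47 and 0.43. A further probe set of Atp5h, at 8819 in normal lungs and 8733 in tumours on average, gave -0.01 (adjusted p = 0.978), and the rise was not called with the mean of the gene's probe sets. Atp5md, Atp5j and Atp5l differed by 0.31, 0.29 and 0.25 and Atp5k by -0.24, none called.

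Averaged over genes, the array level of the 74 subunits outside the tissue isoforms and assembly factors was 11.76 to 12.01 in normal lungs and 12.12 to 12.39 in tumours, on the log2(signal + 16) scale. All 6 tumours were above all normal lungs, and tumour 5 was the highest. After quantile normalization the ranges were 11.83 to 12.04 and 12.08 to 12.29, again without overlap. The level of complex V was 12.40 ± 0.12 (SD, n = 6) in normal lungs and 12.85 ± 0.09 in tumours, and that of complex I was 11.41 ± 0.08 and 11.74 ± 0.12. In both complexes all tumours lay above all normal lungs under both scalings. In complex III this held for 5 of 6 tumours, in complex IV without isoforms for 5 and in complex II for 4, and for 3, 2 and 3 after quantile normalization. With its isoforms included, the level of complex IV differed by -0.32 (quantile scaling -0.37), with 5 tumours below all normal lungs (6 after quantile normalization). The level of the brightest 25% of genes was 11.12 ± 0.02 in normal lungs and 11.08 ± 0.03 in tumours.

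**Figure D4:**
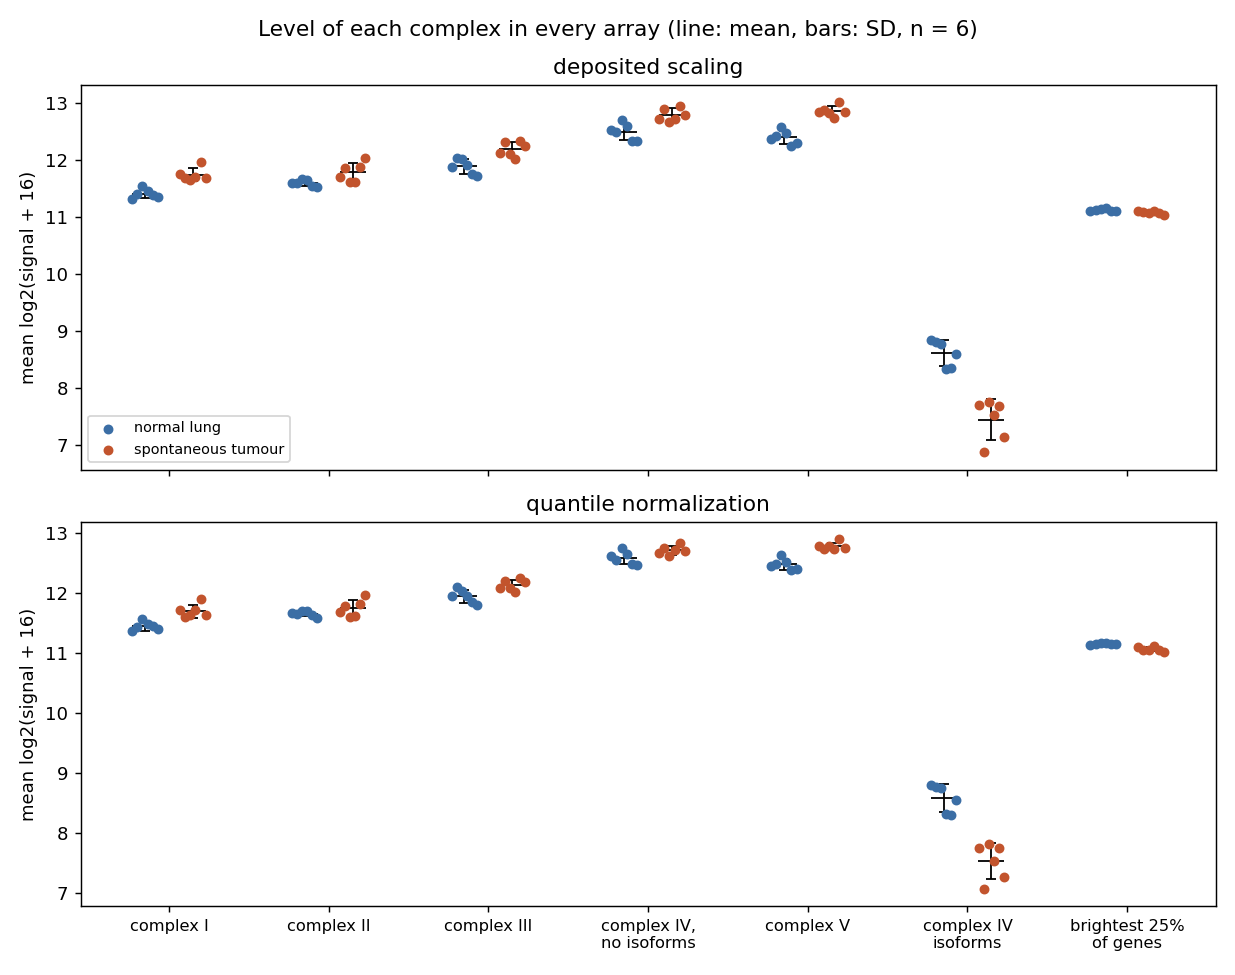
Mean log2(signal + 16) over the genes of each complex in every array, normal lungs in blue and tumours in orange (line: mean, bars: SD, n = 6), with the deposited scaling above and quantile normalization below. Complexes I and V are higher in all tumours under both scalings, the complex IV tissue isoforms are lower, and the brightest 25% of all genes differ by -0.04 (deposited) and -0.09 (quantile).

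Other genes of mitochondrial energy metabolism were counted in the same way. Of 40 further chain and assembly genes 13 rose and none fell, with a median of 0.24. Atpif1, the inhibitor of ATP synthase hydrolysis, had a signal of 1655 ± 163.1 in normal lungs and of 4078 ± 1021 in tumours (SD, n = 6 each; 1.26 ± 0.15, adjusted p = 1.75e-05). Cox11, which delivers copper to complex IV, rose by 0.70, Cox20, an assembly factor of complex IV, by 0.54 and Higd2a by 0.49. Of 12 citric acid cycle genes 5 rose and 1 fell: Mdh2, Idh3b, Cs and Fh1 rose by 0.65, 0.51, 0.49 and 0.62, and Ogdh fell by 0.41. Of 13 regulators of mitochondrial gene expression 4 rose, namely Esrra (0.73), Tfb2m (0.42), Yy1 (0.40) and Tfb1m (0.60), and none fell. Nrf1 and Gabpa, whose products bind promoters of this gene class, differed by -0.32 and -0.15 without passing the test. Of 13 genes of import, outer membrane and membrane shape 8 rose and 1 fell. The import receptor Tomm20 rose by 0.91, the chaperone Hspa9 by 0.88 and the prohibitin Phb2 by 1.08, and the fusion protein Mfn2 fell by 0.83. The shares that rose in these lists were 32.5%, 41.7%, 30.8% and 61.5%, in the order given. Among all genes 12.1% were higher and 17.4% lower (median -0.08), and among the brightest genes 23.4% and 20.6% (median 0.06). Whether the lists differ from these backgrounds was not tested. The 13 subunits encoded in mitochondrial DNA were not analysed here.

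The values rest on the probe set chosen for each gene. In 51 members there was more than 1 probe set, and of the 89 further probe sets 28 were higher and none lower. Of the 39 further probe sets of members that rose, 17 were higher and 22 not called, of which 7 had a negative difference (in Atp5h, Cox5b, Ndufb11, Ndufa12, Ndufab1 and Ndufs4). In 9 uncalled members a further probe set was higher (Uqcrb, Ndufc2, Ndufa3, Atp5d, Ndufa7, Ndufs8, Cox7a2l, Ndufv1 and Cox7c). The 2 members under the median probe set in both groups were Ndufb4 and Cox7b2.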

How the data were processed

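The authors deposited a linear signal intensity for each probe set. The submitters' processing notes name MAS5, with no version or settings given in the sources used here. The mean trimmed by 2% at each end was 497.36 to 498.07 on every array, so the deposited scaling was kept. Of 45101 probe sets 64 controls were left out, and 34945 had a single symbol in the platform annotation. Values were taken as log2(signal + 16) and the 6 arrays of each group were compared in R 4.3.3 by limma 3.58.1, with lmFit, eBayes (trend = TRUE) and no covariates. Two-sided p-values were adjusted over 45037 probe sets by Benjamini-Hochberg, with 0.05 as the threshold. A gene was its probe set with the highest mean log2 value. The script was tested on simulated data. Named genes were, per complex and role, up to 3 called members with the smallest adjusted p in each direction, fixed subunits and paralogue pairs, members whose call or sign changed with the scaling, and up to 4 called genes in each other list; other genes with a value were picked with their values known. The members and lists were chosen with earlier results of these data known. Same-numbered arrays did not deviate together (correlations -0.018 to 0.022), so numbers were not used as pairs. The number of arrays limits the precision. Tables and figures used Python 3.11.15, pandas 2.3.3 and matplotlib 3.10.9.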

Additional observations from a re-analysis of the deposited data

Results flagged for a closer look

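In 100 groups of 6 values tested for 1 array far from the other five, 7 were found, and chance gives about 1 in 20. Tumour 6 was high for Atp5a1 (14330). Normal lung 3 was high for Atp5e (4793) and for Atp5g2 (6092). Tumour 5 was high for Atp5g1 (4332), for Ndufab1 (5859) and for the mean level of complex I (11.97). Tumour 2 was high for Cox7a2 (16720).

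Probe sets with several symbols were outside the comparison. Among those that include a member's symbol or pattern, the probe set of Ndufs6b and Ndufs6 was higher in tumours by 0.45 (adjusted p = 0.0183) and that of Ndufab1-ps and Ndufab1 by 0.70 (adjusted p = 7.24e-05, limma). The others were not called. Bright ones gave -0.20 (Ndufs5 and Ndufs5-ps), -0.15 (Ndufa11b and Ndufa11) and 0.003 and 0.02 (Ndufb4 with Ndufb4b and Ndufb4c). The dim ones lay between -0.49 and -0.17.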

How the results depend on the processing

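Of the 32 rises, 10 (among them Ndufa2, Atp5o, Atp5c1 and Uqcrc2) were called in all 25 alternatives, as were the falls of Cox8b, Cox7a1 and Cox4i2, and no member was called in the opposite direction in any of them. Among the 25 is the choice of the probe set with the lowest adjusted p, where a called member can hardly lose its call. Leaving out 1 array gave 26 to 33 members higher and 6 to 7 lower, and 25 of the 32 rises and all 6 falls were called in each of these fits. Quantile normalization gave a median difference of 0.18 over the members and 0.26 over complex V, and Sdha changed sign to -0.13. Median centring gave 52 members higher, a median of 0.48 and medians of 0.52, 0.43, 0.41, 0.048 and 0.65 for complexes I to V, and Ndufs7 changed sign to 0.070. The median of complex IV was -0.14 with the deposited scaling, 0.029 with a filter on dim probe sets and 0.073 with the mean of all probe sets. With the probe set of lowest adjusted p it was 0.22, and that of complex II was 0.43 (0.24 with the deposited choice). Choosing by the tested p can enlarge these medians. Tumours 4 and 6 alone gave 18 members higher and Ndufs8 at -0.083; Eif2s3y as a covariate gave 13 and -0.017. Without single arrays Sdha ran from -0.0175 to 0.11. The cause of these changes was not tested. With a replicate block, 26 members were higher and 6 lower; samples with the same number share only that number. Without an intensity trend 25 were higher, and without normal lungs 2 and 4 22 were. Shares of all genes are given for the deposited, quantile and median scalings only, so counts from the other fits cannot be set against such a share. Low signal limits Ndufb4 and Cox7b2.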

Other observations

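Cox6a2 was lowest in tumours 2 and 6 (135.3 and 213.6), the 2 tumours with the lowest mean level of the type II cell list (13.78 and 13.42, against 14.44 to 14.82 in the other four). Abca3, a lipid transporter of surfactant-making cells, had a signal of 4471 and 4482 in these 2 tumours and of 12270 to 13480 in the other four, beside 4350 to 5240 in normal lungs. The pattern was noticed after the values were seen and was not tested.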
